A study of Mus musculus with 2 samples.

Results

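Integrins are surface receptors made of an alpha and a beta chain, and each pairing binds its own set of counter-receptors on other cells or components of the extracellular matrix. In inflamed tissue the beta 2 integrins of leukocytes bind ICAM molecules and complement, the beta 1 integrins bind fibronectin, laminins, collagens and VCAM-1, the beta 7 integrins bind MAdCAM-1 and E-cadherin, and the alpha v integrins bind matrix and release TGF-beta from its latent form. In a grafted heart the family therefore covers the entry of recipient leukocytes, their retention, and the grip of stromal cells on matrix. The genes described here were all symbols of the expression matrix that start with Itga or Itgb, which gave 31 of 22337 symbols. Of these, 18 code for alpha chains and 9 for beta chains or the beta-like Itgb2l, and 4 share the prefix without coding for a chain that pairs in a receptor (Itgb1bp1, Itgb1bp2, Itgb3bp and Itgbl1).

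The cells came from mouse hearts of the Bm12 strain, which carries an altered MHC class II I-A molecule, transplanted heterotopically into C57BL/6 (B6) recipients and taken at postoperative day 14. The donors were either Il33+/+ Bm12 mice (IL-33+ hearts) or Bm12 il33-/- mice, a line made by backcrossing (IL-33- hearts), with 3 hearts in each group, and the mice were matched for age and sex with the ages not stated. Cells from a Lympholyte-M gradient were tagged by heart with hashtag antibodies and pooled into 1 3' gene expression library. The 6 hearts therefore shared cell capture, library preparation and sequencing, while digestion and tagging were done heart by heart. Whether those earlier steps shared a day is not stated. The matrix held 4441 cells in the 14 types of the deposited annotation, with 230 to 1666 cells and 908140 to 7012943 unique molecular identifiers (UMIs) per heart. The UMIs per cell ran from 1500 to 14977. Each cell barcode occurred once with 1 heart label, which does not test the assignment of cells to hearts. The IL-33+ hearts are numbered 1 to 3 in label order, as are the IL-33- hearts, and equal numbers do not pair hearts.

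Before the results, 4 features of the annotation touch integrin genes. The Il33 transcript did not separate the labelled groups in fibroblasts, where its mean level was 24.3, 0 and 50.7 CPM (UMIs scaled to a common total per cell) in IL-33+ hearts 1 to 3 and 32.6, 73.8 and 16.1 in IL-33- hearts 1 to 3. These levels rested on 7, 0 and 121 Il33 UMIs in IL-33+ hearts and on 9, 3 and 5 in IL-33- hearts. Whether the reads lie in the deleted part of the gene was not tested. The group labels were taken as annotated and not checked by this transcript. Fibroblasts were unevenly spread, with 270 of 375 in IL-33+ heart 3 and only 6 and 4 in IL-33+ heart 2 and IL-33- heart 2. Of the unconventional T cells, 62 of 83 held UMIs of 3 or more of 7 macrophage genes, and 50 of the 83 were among the 266 cells of highest doublet score. Small groups of cells with endothelial genes among the fibroblasts and with neutrophil genes among the Mo-DCs are described with the integrins they carried. Every member had at least 1 UMI, 22 had 100 or more, and together the family made up 0.209% of all UMIs.

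Levels by type are given as the CPM of an average cell of that type in a heart, then averaged over the 6 hearts, with the SD over hearts. Each UMI stands for 1 captured 3' end, so comparing the CPM of different genes needs no correction for transcript length. Whether the genes were captured equally well was not tested. Since the types were defined by clustering the same cells and genes, levels by type are given as a description with no test. The summed level of all 31 genes was 3062 CPM in NK cells, 2939 in monocytes and 2763 in NKT cells, against 798 in B cells and 1011 in Tn cells.

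**Figure D1:**
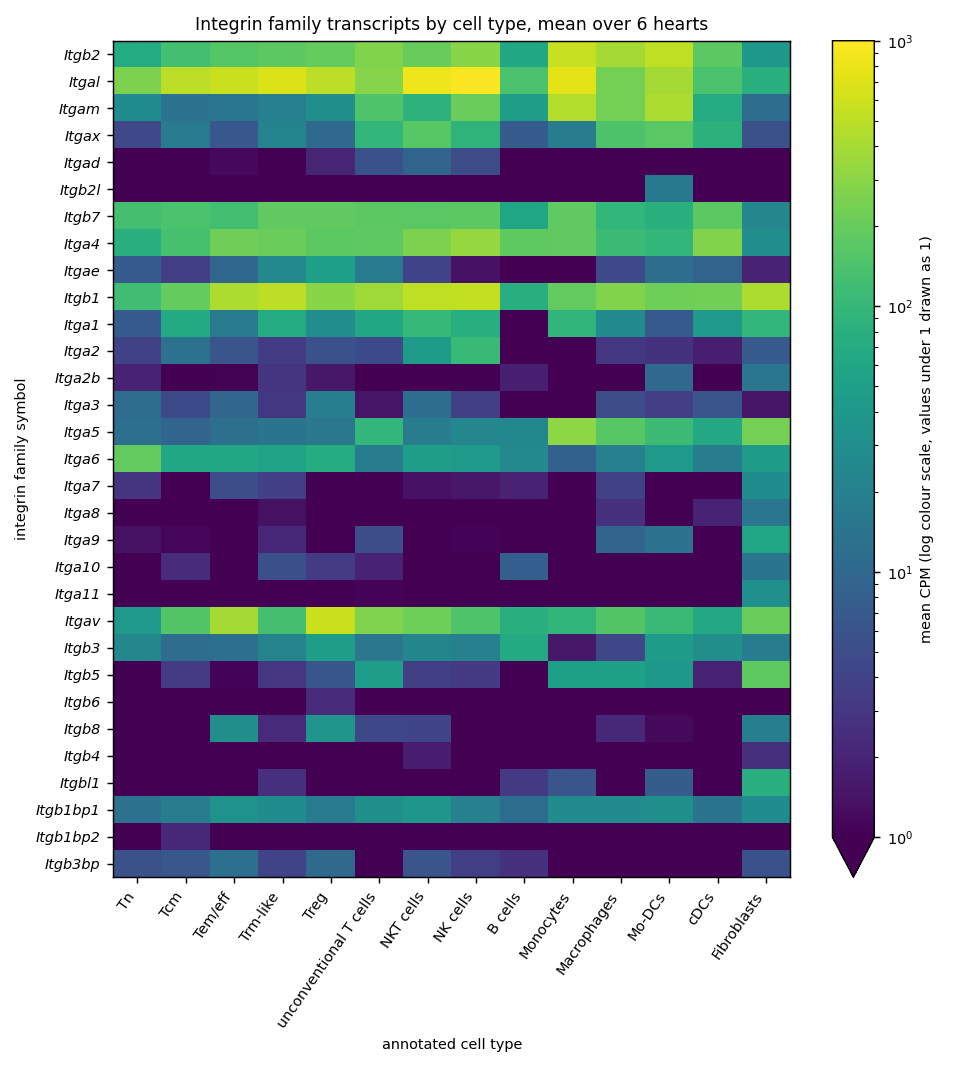
Mean level of each of the 31 integrin family symbols (rows, grouped by the beta chain they pair with) in each of the 14 annotated cell types (columns), as CPM averaged over 6 hearts on a log colour scale. Itgal was brightest in NK cells at 970 CPM, Itgav in Treg at 580 CPM, and Itga9, Itga11, Itgb5 and Itgbl1 in fibroblasts.

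The beta 2 chain Itgb2 was highest in monocytes (564 ± 120 CPM, SD, n = 6), Mo-DCs (523 ± 317) and macrophages (394 ± 87.5), and its order among these 3 types was not fixed, with monocytes above Mo-DCs in 3 of 6 hearts. Macrophages stood above NK cells, the next type at 295 ± 57.0 CPM, in 5 of 6 hearts. Its alpha partner Itgal (CD11a), which with Itgb2 forms the ICAM receptor LFA, had the highest level of any member, at 970 ± 93.9 CPM in NK cells, 839 ± 74.5 in NKT cells and 751 ± 345 in monocytes. Itgam (CD11b), the alpha chain of the complement receptor on myeloid and NK cells, was at 452 ± 103 CPM in monocytes, 422 ± 221 in Mo-DCs, 237 ± 65.7 in macrophages and 209 ± 67.4 in NK cells. Itgax (CD11c), widely used as a dendritic cell marker, was at 171 ± 180 CPM in Mo-DCs, 164 ± 54.7 in NKT cells and 144 ± 33.2 in macrophages, and the Mo-DC value exceeded the NKT value in only 1 of 6 hearts. In cDCs, where Itgax is used as a defining gene, its level was 85.0 ± 49.6 CPM, below those of NKT cells and macrophages. Itgad, the remaining alpha chain of the group, had 41 UMIs in all, 18 of them in NKT cells.

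Since 4 alpha chains share the beta chain Itgb2, the UMIs of Itgal, Itgam, Itgax and Itgad were also taken as shares of their sum. In the T cell types Tn, Tcm, Tem/eff, Trm-like and Treg, Itgal made up between 90.7% and 96.0% of these UMIs. The myeloid types were mixed, with Itgam at 42.4% and Itgax at 25.5% in macrophages and Itgam at 48.0% in Mo-DCs. Monocytes held 61.1% Itgal and 37.0% Itgam but only 1.88% Itgax, while cDCs held the largest Itgax share of any type, 33.0%. NK and NKT cells had almost the same Itgal share (76.1% and 76.5%), with the rest mostly Itgam in NK cells (16.7%) and mostly Itgax in NKT cells (14.21%). The summed UMIs of the 4 alpha genes exceeded those of Itgb2 in every type, at 3438 against 830 in NK cells and 1790 against 1060 in macrophages. The shares therefore describe transcripts and not amounts of paired receptor.

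**Figure D2:**
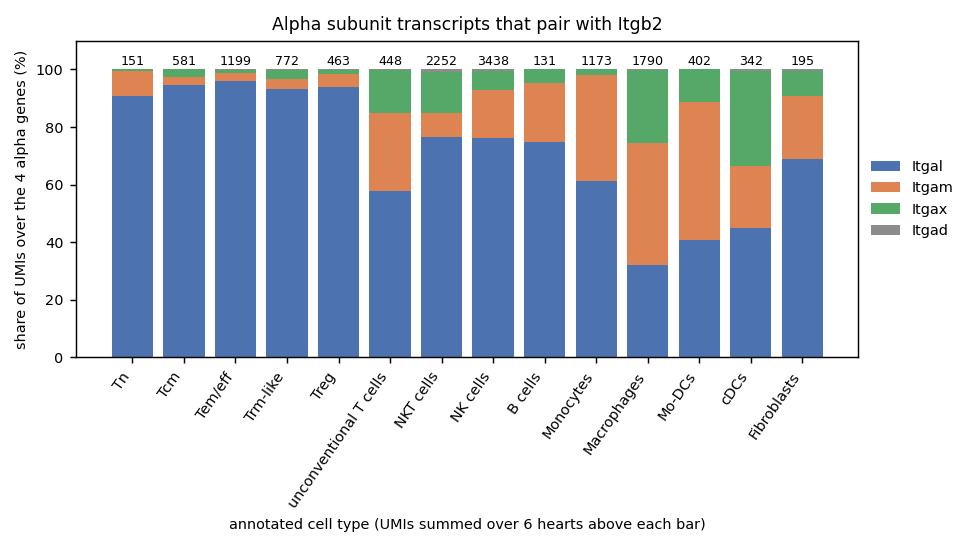
Share of the UMIs of Itgal, Itgam, Itgax and Itgad that each gene took in each annotated cell type, in percent, with UMIs summed over the 6 hearts printed above each bar. Itgal filled at least 90.7% of the bar in Tn, Tcm, Tem/eff, Trm-like and Treg cells, 57.8% in unconventional T cells and 32.0% in macrophages.

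Itgam, Itgax and Itgad lie next to each other on chromosome 7 in the GENCODE M21 annotation of GRCm38, in the same direction, with 11.1 kb between Itgam and Itgax and 3.72 kb between Itgax and Itgad, and Itgal lies 728 kb upstream of Itgam. The RefSeq promoter windows of Itgam and Itgax (GRCm38.p6, 250 bases before to 50 after the start, plus strand, chr7:128062390-128062689 and chr7:128129300-128129599) are shown because the neighbours were far apart in monocytes, at 452 and 18.7 CPM. In macrophages they were closer, at 237 and 144 CPM, and in NKT cells Itgax was the higher, at 164 against 87.1 CPM. No window was available for Itgal, Itgad or Itgb2. Capitals mark every match to GAGGAA, the core of many PU.1 sites, or to its reverse complement TTCCTC.
Itgam: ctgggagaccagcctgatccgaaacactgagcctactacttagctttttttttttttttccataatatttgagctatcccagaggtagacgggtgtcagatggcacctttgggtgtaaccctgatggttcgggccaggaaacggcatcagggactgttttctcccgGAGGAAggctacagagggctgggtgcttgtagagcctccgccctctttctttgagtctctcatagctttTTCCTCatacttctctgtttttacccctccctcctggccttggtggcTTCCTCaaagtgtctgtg
Itgax: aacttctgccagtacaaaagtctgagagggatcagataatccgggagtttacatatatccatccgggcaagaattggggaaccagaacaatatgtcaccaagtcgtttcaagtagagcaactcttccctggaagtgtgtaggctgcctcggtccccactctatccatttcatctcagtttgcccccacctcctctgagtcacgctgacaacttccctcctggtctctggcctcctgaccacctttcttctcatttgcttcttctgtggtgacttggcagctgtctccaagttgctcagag
The Itgam window held 3 matches, at positions 167, 236 and 283 from its 5′ end, and the Itgax window held none, while 28.3% of all 32851 promoter windows held at least 1. A match of letters is no evidence of binding.

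The beta 1 chain Itgb1 was broadly present, from 525 ± 70.8 CPM in NK cells, 518 ± 93.9 in NKT cells and 500 ± 118 in Trm-like cells down to 75.0 in B cells, and the upper 3 types did not separate beyond the spread between hearts. The collagen-binding alpha chains Itga1 (CD49a) and Itga2 (CD49b), neighbours on chromosome 13 with 21.0 kb between them, had different profiles. Itga2 stood highest in NK cells in all 6 hearts (104 ± 31.2 CPM, against 42.6 ± 13.1 in NKT cells), and NK cells held 283 of its 472 UMIs. Itga1 was at 102.5 ± 31.2 CPM in NKT cells, 97.2 ± 58.1 in fibroblasts, 95.3 ± 44.2 in monocytes and 79.1 ± 51.9 in NK cells, an order that changed from heart to heart. B cells had 1 Itga1 UMI in 286 cells.

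Itga5, the fibronectin receptor chain, was highest in monocytes (309 ± 49.9 CPM) and fibroblasts (237 ± 191), the latter raised by IL-33- heart 2, whose 4 fibroblasts averaged 623 CPM, and was next in macrophages (167 ± 40.1). The laminin receptor chain Itga6 was highest in Tn cells, at 189 ± 64.0 CPM, above Treg (72.5 ± 20.6) in every heart. Itga4 (CD49d), which pairs with Itgb1 to bind VCAM-1 or with Itgb7, was at 332 ± 57.3 CPM in NK cells, 273 ± 112 in cDCs and 254 ± 47.8 in NKT cells. Several laminin, collagen and osteopontin receptor chains had most of their UMIs in annotated fibroblasts, including those with endothelial genes described below. The annotated fibroblasts held 94 of 154 UMIs of Itga9, 63 of 103 of Itga7, 63 of 68 of Itga11, 44 of 57 of Itga8 and 37 of 62 of Itga10. Itga3, a laminin receptor chain with 112 UMIs, was spread thinly, with at most 19.4 ± 15.4 CPM in Treg.

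Itgb7 was spread over the leukocytes, with 6 types between 176 and 187 CPM, and was lowest in B cells (57.6 CPM) and fibroblasts (24.8 CPM). Its other partner Itgae (CD103), the E-cadherin receptor chain used to mark tissue-resident T cells, was scarce, with 149 UMIs in all. It was at 49.7 ± 37.0 CPM in Treg and 25.5 ± 26.4 in Trm-like cells, with Treg higher in 4 of 6 hearts. UMIs of Itgae were seen in 7.22% of 263 Treg (95% exact binomial interval 4.41% to 11.1%) and 3.59% of 362 Trm-like cells (1.93% to 6.06%). At a common depth of 1499 UMIs per cell these shares were 4.18% and 2.21%, against 0 of 286 B cells, which allows a share of up to 1.05% there; the median depths were 2861 UMIs in Treg, 2706 in Trm-like and 2292 in B cells. Itga1, another integrin chain used to mark resident T cells, had a UMI in 15.2% of Trm-like cells (8.29% at the common depth), against 0.350% of B cells. Tcm cells had one in 18.0% (7.52% at the common depth), and the level of Itga1 in Trm-like cells (70.2 ± 37.1 CPM) exceeded that in Tcm (67.4 ± 24.1) in only 2 of 6 hearts.

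The alpha v chain Itgav was highest in Treg (580 ± 134 CPM) and next in Tem/eff cells (389 ± 54.0), an order seen in all 6 hearts, with Tem/eff in turn above unconventional T cells (265 ± 83.1) in all 6. Of the beta chains that pair with it, Itgb8, which with Itgav binds latent TGF-beta, had its 2 upper levels in the same types, 36.9 ± 10.9 CPM in Treg and 30.2 ± 16.4 in Tem/eff, followed by fibroblasts (19.4 ± 18.4). UMIs of Itgb8 were found in 8.75% of Treg (95% exact binomial interval 5.62% to 12.8%) and in 0 of 286 B cells. Itgb5, a vitronectin receptor chain, was a fibroblast gene at 179.5 ± 49.95 CPM, above macrophages (52.8 ± 18.8) in all 6. Itgb3, the beta chain of the platelet and osteoclast receptors, stayed low, with its highest mean of 67.7 ± 35.5 CPM in B cells resting on 35 UMIs. Itgb6, an epithelial chain, had 3 UMIs and Itgb4, the hemidesmosome chain, 28. The platelet chain Itga2b had 60 UMIs, 24 in fibroblasts and 13 in Mo-DCs, and no fibroblast held UMIs of 2 of the 4 platelet genes Pf4, Ppbp, Gp9 and Gp1bb.

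Among the symbols that are not receptor chains, Itgbl1, a secreted protein with integrin-like repeats, belonged to fibroblasts, with 251 of 267 UMIs there at 80.9 ± 56.8 CPM. Itgb1bp1, which binds the tail of Itgb1, was even across types at 11.5 to 37.2 CPM, Itgb3bp, a centromere protein, stayed at or below 12.3 CPM, and the muscle gene Itgb1bp2 had 2 UMIs.

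Some members marked cells that the annotation had placed within another type. Of 375 fibroblasts, 82 (58 from IL-33+ heart 3) held UMIs of 2 or more of the endothelial genes Pecam1, Cdh5, Kdr, Egfl7 and Fabp4. Their median depth was similar to that of the rest (5923 against 5679 UMIs). These cells carried 148 of the 159 fibroblast UMIs of Itga6 (270 against 5.97 CPM of summed UMIs in the other fibroblasts) and 181 of 307 of Itga1 (330 against 68.3). They also carried 14 of 16 UMIs of Itgb4 and 12 of 14 of Itga3. Itga10 (32.8 against 10.3 CPM), Itga8 (34.6 against 13.6) and Itga7 (38.2 against 22.8) were higher in these cells too, on 18, 19 and 21 UMIs there. The opposite held for Itgbl1 (21.9 against 130 CPM), Itgb5 (65.6 against 204), Itga9 (21.9 against 44.5) and Itga11 (12.7 against 30.4). Itgav was alike in both (220 and 219). Of 204 Mo-DCs, 34 held UMIs of 4 or more of 8 neutrophil genes, and they had Itgam at 914 CPM against 290 in the other Mo-DCs, and 5 of the 6 Mo-DC UMIs of Itgb2l, a neutrophil relative of Itgb2. No Itga4 UMI was found in these 34 cells, against 107 CPM in the other Mo-DCs, and their median depth was 1937 against 2363 UMIs. IL-33+ heart 3 and IL-33- heart 1 held 19 and 10 of the 34. All these values are pooled over cells and were not compared by heart. The gene lists were chosen without integrin genes, but the number of genes required was set with earlier results of these data known.

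**Figure D3:**
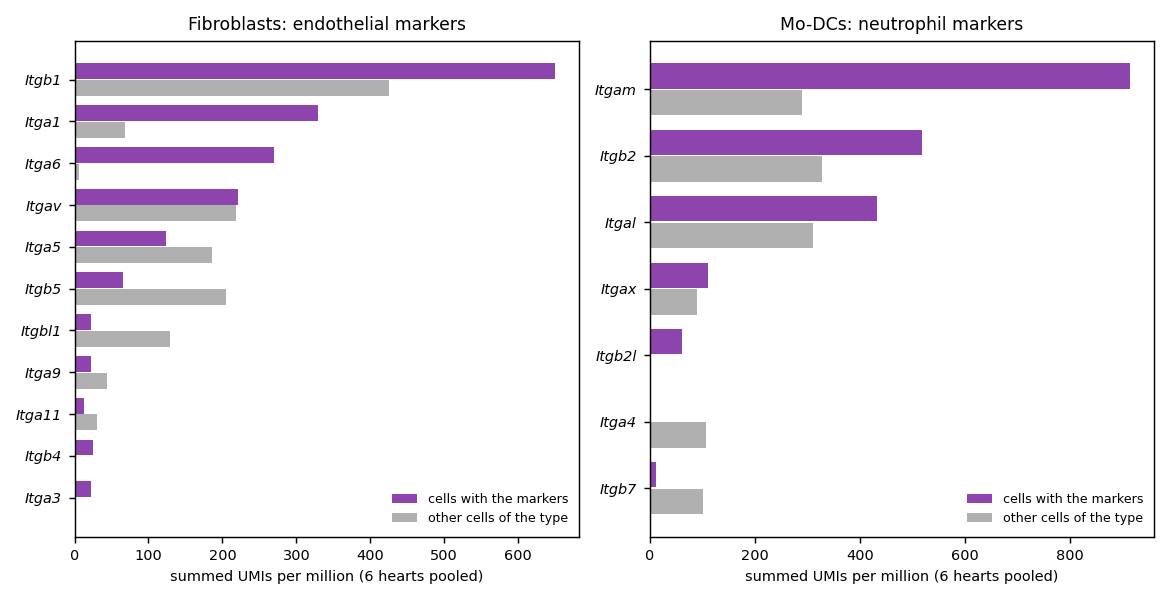
CPM of UMIs summed over 6 hearts, of integrin genes in fibroblasts with and without endothelial marker UMIs (left, 82 and 293 cells) and in Mo-DCs with and without neutrophil marker UMIs (right, 34 and 170 cells). Itga6 reached 270 CPM in the endothelial-marked cells against 5.97 in other fibroblasts, and Itgam 914 against 290 in Mo-DCs. IL-33+ heart 3 held 58 of the 82 endothelial-marked cells.

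Across the 14 types, the members with the most similar profiles were Itga5 and Itgb5 (Pearson r = 0.89 over type means), Itga9 and Itgbl1 (0.88), Itga7 and Itgbl1 (0.85), Itgam and Itgb2 (0.83), Itgav and Itgb8 (0.81), Itga7 and Itga9 (0.81), Itga9 and Itgb5 (0.81) and Itga4 and Itgb7 (0.77). All points share 1 library and the annotation, so these values describe the 14 means and carry no test. Among 10071 genes, those most like Itgam were Fcgr3 (0.92), Adssl1 and Lpin2, and those most like Itgax were Ccl4 (0.89), Fcer1g and Apobr. The profile of Itga4 was nearest to Coro7 (0.95), Sharpin and Emd, that of Itgb7 to Supt4a (0.93), Gpr132 and Mkrn1, that of Itga1 to Dnajc3 (0.84), Capn2 and Dennd4c, and that of Itgae to Sdcbp2 (0.88), Arhgap31 and B4galnt4.

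IL-33+ and IL-33- hearts were then compared to ask whether graft IL-33 altered the integrin genes of any cell type. No member passed the test in any type: of 211 member and type combinations with enough UMIs (28 of the 31 symbols, 8 of them in all 14 types), 0 had an adjusted p of 0.05 or less by limma, which called 0.00884% of all 113175 gene and type combinations. Unadjusted p values under 0.05 were found for 24 combinations (11.4%), 13 higher and 11 lower in IL-33+ hearts, beside 4.71% of all combinations. The groups of hearts did not overlap in 25 of the 211, beside 9.82% of all combinations. The median difference of the members was 0.01 on the log2 scale, and that of all genes was -0.00056. The combinations are not independent, since all types came from the same 6 hearts. Itgb1bp2, Itgb2l and Itgb6 had too few UMIs to be tested.

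With the log2 levels averaged over all 14 types, over the 5 T cell types and over the 4 myeloid types, 0 of 70 member tests passed (2 of all 36701 were called, 0.00545%), and 7 reached an unadjusted p of 0.05, beside 3.79% of all genes. The differences given next cover 12 combinations named by their unadjusted p and 6 taken whatever their p, with other members of the same types beside them, and none passed the adjusted test. The p values and SEs rest on 3 hearts a group, with limma drawing each gene's variance toward the trend of all genes. An SE can therefore be smaller than the spread of that gene's own hearts would give, as for Fn1 in Mo-DCs below.

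**Figure D4:**
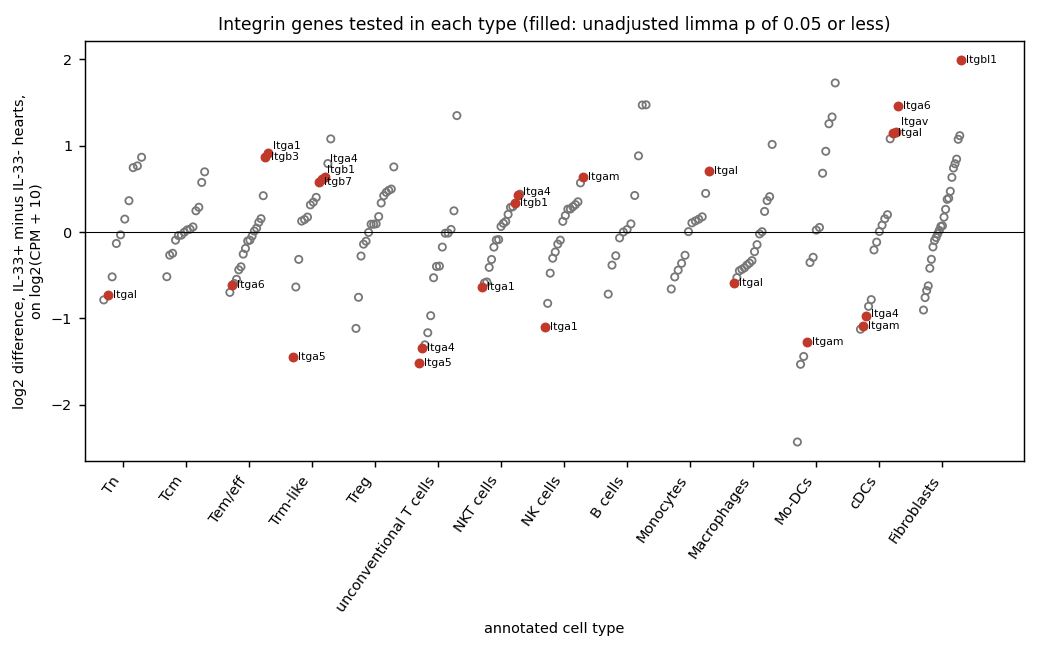
Difference between IL-33+ and IL-33- hearts for the 211 tested combinations of integrin gene and cell type, as log2 of CPM + 10, with the 24 of unadjusted p of 0.05 or less filled and named. None passed after adjustment, and the filled points lie on both sides of 0.

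In NK cells 2 of 16 members reached an unadjusted p of 0.05 (5.82% of all genes did), both alpha chains used to mark NK subsets. Itga1 in NK cells was at 27.5, 73.1 and 38.3 CPM in IL-33+ hearts 1 to 3 and at 70.1, 173 and 92.0 in IL-33- hearts 1 to 3. IL-33- heart 1 fell just below IL-33+ heart 2, so the groups overlapped, with a log2 difference of -1.11 ± 0.32 (SE) and an adjusted p of 0.459, the lowest of any member. The share of NK cells with an Itga1 UMI was 5.71%, 13.2% and 6.95% in IL-33+ hearts and 14.3%, 33.3% and 13.6% in IL-33- hearts, whose NK cells were also deeper, with medians of 2936 to 3297 against 2548 to 2737 UMIs. Itgam ran the other way, at 189, 299 and 283 CPM in IL-33+ hearts against 136, 152 and 193 in IL-33- hearts, and again only 1 pair of hearts crossed (log2 difference 0.64 ± 0.20, adjusted p = 0.569). As a share of the 4 beta 2 alpha chains, Itgam took 13.9%, 19.9% and 19.8% in NK cells of IL-33+ hearts and 10.2%, 12.9% and 13.3% of IL-33- hearts. That share was the only 1 of 56 partner shares in which the groups did not overlap, its exact two-sided permutation p of 0.1 was the smallest the design allows, and its adjusted p was 1. Itga2 did not follow either chain, at 152, 69.9 and 118 CPM against 69.8, 107 and 109 (log2 difference 0.19 ± 0.26).

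Itga1 was also lower in NKT cells of IL-33+ hearts in value (78.4, 83.8 and 70.3 against 146, 102.1 and 134 CPM, with no overlap; log2 difference -0.64 ± 0.24, adjusted p = 0.924), beside summed NK genes of 5745 to 6419 CPM against 2972 to 5700, whose part was not tested, and in Tem/eff cells it was higher in value (15.3, 37.0 and 18.8 against 23.4, 0 and 5.04 CPM). Within hearts, the 91 NK cells with an Itga1 UMI were compared with the 840 without for 10 other members, a comparison chosen after the values were seen. None of the 10 reached p = 0.05, the closest being Itgax (153 ± 62.7 against 77.8 ± 16.4 CPM, higher in 4 of 6 hearts, exact sign-flip permutation p = 0.125). The smallest p this test allows is 0.03125, which needs the same sign in all 6 hearts. The fewest Itga1-positive NK cells in a heart were 7, so a difference could be missed. Thy1, a ligand of Itgam and Itgb3 receptors and the only ligand looked at in this way, was at 364 ± 105 CPM in the Itga1-positive NK cells against 178 ± 70.5 in the others, a description with no test, since the gene was picked after its values were seen. The Itga1-positive NK cells were also deeper, with a median of 3091 against 2679 UMIs. It was lower in value in NK cells of IL-33+ hearts, at 129, 189 and 109 CPM against 286, 337 and 179 (log2 difference -0.85 ± 0.22, adjusted p = 0.286). Summed T cell genes in NK cells were at 190 to 280 CPM in IL-33+ and 234 to 333 CPM in IL-33- hearts, with all 5 genes detected. The 4 monocyte genes Plac8, Ly6c2, Ccr2 and Chil3 summed to 458 to 515 CPM in NK cells of IL-33+ hearts and 734 to 747 CPM in IL-33- hearts, without overlap and with all 4 detected. The part of these genes in the NK cell differences was not tested.

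In Trm-like cells 4 of 14 members reached an unadjusted p of 0.05, beside 5.05% of all genes. Itgb1 in Trm-like cells was at 619, 602 and 596 CPM in IL-33+ hearts and at 378, 438 and 367 in IL-33- hearts, a gap wider than the spread within either group (log2 difference 0.61 ± 0.18, adjusted p = 0.923). Itgb7 was at 199, 294 and 179 CPM against 135, 152 and 142, also without overlap (0.58 ± 0.27, adjusted p = 0.923), and the difference was 0.38 without IL-33+ heart 2. Itga4, which pairs with both, was at 330, 198 and 229 CPM against 132, 126 and 224, with 1 IL-33+ heart below an IL-33- heart. Itga5, the only 1 of the 4 with a lower value in IL-33+ hearts, was at 3.47, 0 and 3.93 CPM against 38.8, 10.6 and 27.8, on 3 and 12 UMIs. Itgae in Trm-like cells was at 4.13, 56.7 and 59.1 CPM against 4.86, 25.0 and 3.27, and overlapped, with a log2 difference that ran from 0.71 without IL-33+ heart 2 to 1.83 without IL-33+ heart 1. The 5 NK genes Ncr1, Klrb1c, Klre1, Klra8 and Gzma together were higher in the same cells of IL-33+ hearts, from 1193 to 2520 CPM against 270 to 760, with Ncr1 at 0 throughout and most of the sum from Gzma, and their part in the integrin differences was not tested.

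In Treg the groups overlapped for Itgav, Itgb8 and Itgae, 3 of the members with their highest level there. Itgav in Treg was at 766, 513 and 562 CPM in IL-33+ hearts and 699, 546 and 395 in IL-33- hearts (log2 difference 0.18 ± 0.24, adjusted p = 0.976), and Itgb8 was at 36.2, 21.5 and 39.5 against 51.0, 45.5 and 27.9. Itgae in Treg was at 123, 46.7 and 20.6 CPM against 35.4, 34.3 and 37.96, so the mean of IL-33+ hearts was carried by heart 1 (0.42 ± 0.54, adjusted p = 0.976), and without that heart the difference was -0.14. In Tem/eff cells Itgb3 was at 17.4, 8.58 and 32.3 CPM against 7.53, 4.23 and 4.13 without overlap (0.87 ± 0.39), on 24 and 5 UMIs, and the difference was 0.57 without IL-33+ heart 3.

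In cDCs 5 of 15 members reached an unadjusted p of 0.05, 3 higher and 2 lower in IL-33+ hearts, beside 6.79% of all genes. Of these, only Itga4, Itgav and Itga6 are given, since they were the ones named here by the rule of lowest p. Itga4 in cDCs was at 131, 169 and 252 CPM in IL-33+ hearts and at 317, 331 and 436 in IL-33- hearts, without overlap (log2 difference -0.97 ± 0.29, adjusted p = 0.481). In the same cells Itgav was at 46.8, 167 and 72.3 CPM against 43.1, 27.6 and 27.7 (1.15 ± 0.49, adjusted p = 0.712), and Itga6 at 65.0, 25.2 and 9.18 against 2.88, 0 and 8.67 (1.46 ± 0.63), on 18 and 3 UMIs. IL-33+ heart 2, with 6 cDCs, held the highest Itgav value, and the difference was 0.70 without that heart and 0.61 where hearts with under 10 cells were left out. The 5 T cell genes summed to 34.7 to 90.5 CPM in cDCs of IL-33+ hearts and 0 to 42.0 CPM in IL-33- hearts, and their part in the Itgav and Itga6 values was not tested.

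In monocytes Itgal was at 832, 1398 and 613 CPM against 424, 546 and 694, overlapping, and its log2 difference of 0.71 ± 0.25 (adjusted p = 0.965) was 0.39 without IL-33+ heart 2, which had 5 monocytes. In macrophages Itgam was at 245, 146 and 286 CPM against 213, 331 and 199, overlapping, and Itgax at 135, 100 and 131 against 143, 201 and 156, without overlap (log2 difference -0.41 ± 0.27, adjusted p = 0.987). Itgam in Mo-DCs was at 409, 94.0 and 297 CPM against 557, 742 and 437 without overlap (-1.28 ± 0.55), and the difference was -0.93 ± 0.58 without the 34 cells with neutrophil genes. The summed neutrophil genes of Mo-DCs ran from 1651 to 8623 CPM in IL-33+ hearts and from 1478 to 71109 in IL-33- hearts. The 4 monocyte genes Plac8, Ly6c2, Ccr2 and Chil3, all detected there, summed to 430 to 758 CPM in Mo-DCs of IL-33+ hearts and 1210 to 2156 CPM in IL-33- hearts, without overlap, and their part in the Itgam difference was not tested.

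In fibroblasts Itgbl1 alone of 25 members tested reached an unadjusted p of 0.05, beside 3.16% of all genes. It was at 104, 150 and 115 CPM in IL-33+ hearts against 25.6, 0 and 91.0 in IL-33- hearts, without overlap, where IL-33- heart 2 at 0 had 4 fibroblasts (log2 difference 2.00 ± 0.64, adjusted p = 0.998). The difference was 2.01 ± 0.64 without the endothelial-marked cells, 1.13 without IL-33- heart 2 and 0.99 without hearts of under 10 cells. Itgb1 in fibroblasts was at 580, 402 and 468 CPM against 367, 281 and 457, and Itgav at 332, 189 and 192 against 207, 121 and 210, both overlapping. Their log2 differences of 0.39 ± 0.31 and 0.38 ± 0.38 were 0.26 and 0.12 without IL-33+ heart 1 and 0.22 and 0.13 without IL-33- heart 2, and became -0.14 ± 0.38 and -0.04 ± 0.45 once the endothelial-marked cells were left out; such cells made up 23.5%, 33.3% and 21.5% of fibroblasts in IL-33+ hearts and 35.5%, 0% and 10.0% in IL-33- hearts.

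Over all types, Itga5 averaged 5.54, 4.89 and 5.58 on log2(CPM + 10) in IL-33+ hearts and 5.80, 5.86 and 5.96 in IL-33- hearts, without overlap (log2 difference -0.53 ± 0.20, adjusted p = 0.999). It was -0.31 without IL-33+ heart 2, whose values rested on 43 Itga5 UMIs. Itgb1 averaged 8.29, 8.17 and 8.09 against 7.99, 7.80 and 8.003 without overlap (0.25 ± 0.11, adjusted p = 0.999). Over the 5 T cell types Itgax averaged 4.38, 4.81 and 4.33 against 4.01, 3.72 and 4.24 (0.51 ± 0.25, adjusted p = 0.955).

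**Figure D5:**
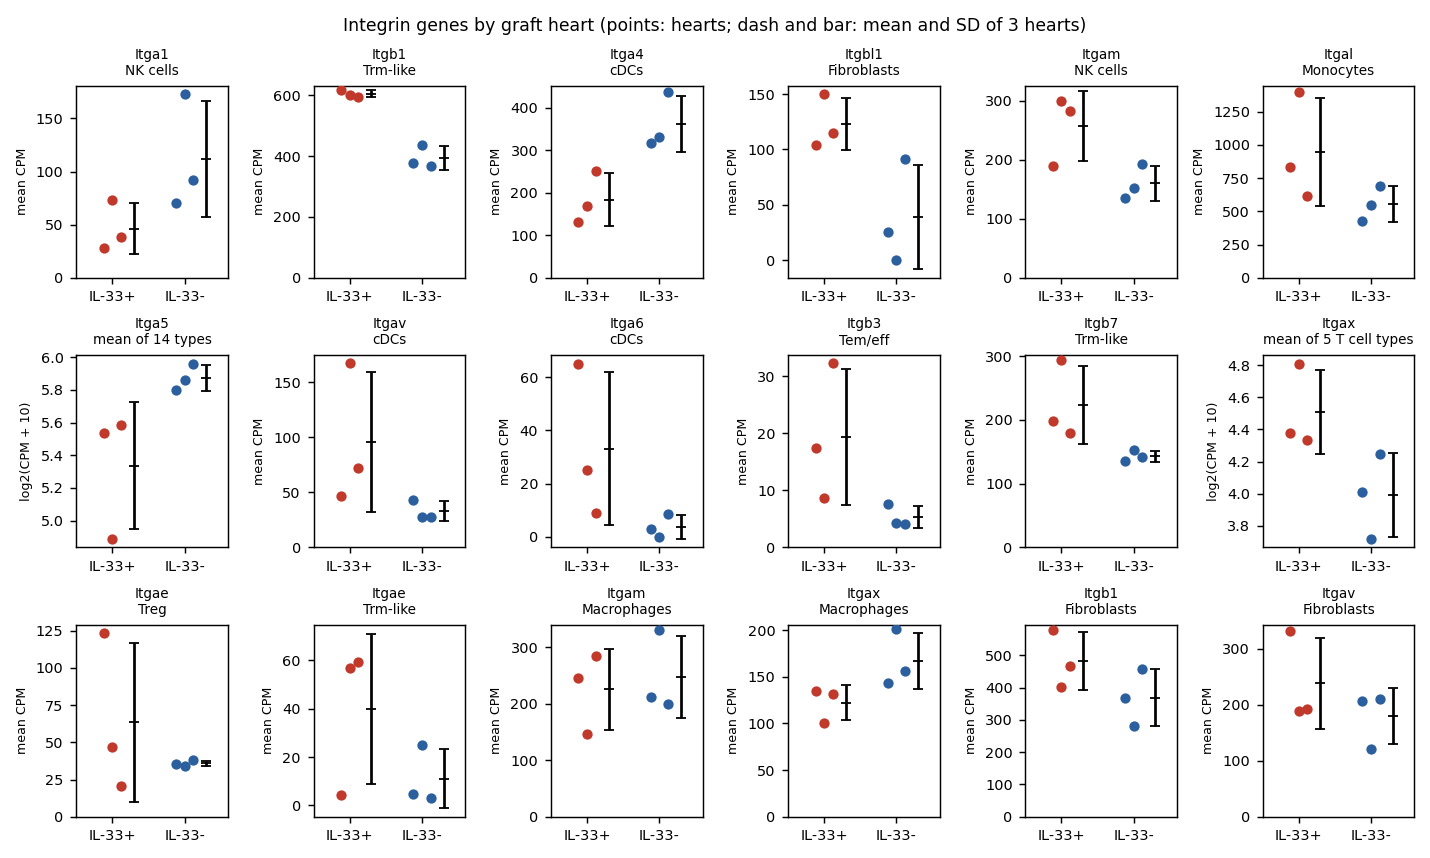
Level of the named integrin genes in each heart, as mean CPM per type or, for the averages over types, as log2(CPM + 10), with IL-33+ hearts in red and IL-33- hearts in blue and the mean and SD of 3 hearts as dash and bar. Itgb1 in Trm-like cells shows groups without overlap, at 596 to 619 against 367 to 438 CPM, while Itgae in Treg overlaps.

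The partners of integrins were read from lists of 33 ligands and 30 activators and adaptors. No ligand was called in 245 ligand and type combinations, with 31 at an unadjusted p under the 0.05 limit (12.7%, beside 4.71% of all combinations), 21 higher and 10 lower in IL-33+ hearts, and their median difference was 0.07. No activator or adaptor was called in 341 combinations, with 16 under that limit (4.69%, beside the same 4.71%) and a median difference of 0.04. The 3 lowest p values all belonged to ligands. Fn1, the ligand of Itga5 and Itgb1, was at 871, 0 and 172 CPM in Mo-DCs of IL-33+ hearts against 124, 1025 and 1765 in IL-33- hearts, a wide overlap (log2 difference -2.42 ± 0.60, adjusted p = 0.0576). Spp1, the osteopontin ligand of alpha v and Itga9 receptors, averaged 7.38, 7.98 and 7.80 on log2(CPM + 10) over the 5 T cell types against 7.43, 6.93 and 6.75 (0.68 ± 0.17, adjusted p = 0.296). In unconventional T cells, where macrophage genes summed to 2030 to 3224 CPM in IL-33+ and 3169 to 4669 CPM in IL-33- hearts, Spp1 was at 107, 7341 and 1174 CPM against 162, 159 and 102.01 (2.76 ± 0.69, adjusted p = 0.372). The 7341 CPM of IL-33+ heart 2 came from 2 cells, with 25 and 27 in the other IL-33+ hearts and 18, 7 and 4 in IL-33- hearts.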

How the data were processed

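The 3' library of 6 hash-tagged hearts was processed by the authors with Cell Ranger on mm10 and with Partek 10.0.23.0425, and the deposited matrix holds log2(CPM + 1) per cell. Hearts and cell types were taken from the deposited annotation. Whole UMI counts were recovered from the deposited log2 values (99.9% of low values within 0.05 of a whole number). Levels were mean CPM per heart and type. IL-33+ and IL-33- hearts were compared by limma 3.58.1 (R 4.3.3) with trend on log2(mean CPM + 10), for genes with 10 or more UMIs in a type and a UMI in 3 or more hearts, with Benjamini-Hochberg adjustment over all genes of a type at 0.05. Fold changes on this scale understate those of low genes. The fit was tried on simulated summed UMIs of macrophages, Treg and Trm-like cells only. Mean CPM over cells and the other types were not simulated. Partner shares were compared by exact permutation over hearts, adjusted over 56 tests. Doublets were not removed: scrublet (scanpy 1.11.5) called 2, and an alternative left out the 6% of highest score. Intervals and limits cover counting error only, and a 0 was taken to allow 3 counts. Genes were named by rule: every member by its UMIs and level by type, and between groups each member at an unadjusted p of 0.05 or less in its comparison of lowest p (at most 12), plus Itgae, Itgam, Itgax, Itgb1 and Itgav in fixed types. The members, lists and tests were chosen with earlier results of these data known. Alternatives without the endothelial-marked and neutrophil-marked cells were added after seeing the data.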

Additional observations from a re-analysis of the deposited data

Results flagged for a closer look

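For 4 members the difference between IL-33+ and IL-33- hearts had opposite signs, without overlap of the hearts, in at least 1 pair of types, which gave 8 pairs of types. The share of all genes with such a pair was not counted, so these numbers do not set the integrins apart. Groups of hearts did not overlap in 9.82% of all gene and type combinations. The difference between the types was tested by limma on the within-heart difference of log2 levels, over all genes tested in both types. None passed after adjustment (lowest adjusted p = 0.724), while all 8 were under 0.05 unadjusted; the pairs were picked because their signs differed, so these p values are too small. For Itga4, the log2 difference in NKT cells exceeded that in cDCs by 1.40 and that in unconventional T cells by 1.77, and the difference in Tn cells exceeded them by 1.74 and 2.11. For Itga6, the difference in cDCs exceeded that in Mo-DCs by 3.90 and that in unconventional T cells by 2.63. For Itgb2, the difference in B cells exceeded that in macrophages by 1.83, on 56 Itgb2 UMIs in B cells, where the median of all genes was itself shifted by 0.28. For Itgax, the difference in Trm-like cells exceeded that in macrophages by 1.21.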

How the results depend on the processing

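Over the 14 types no member was called under the alternatives tried except Itga1 in NK cells by limma-voom on summed UMIs (1 call, log2 difference -1.27, adjusted p = 0.0426; its adjusted p ranged from 0.0426 to 0.973 over all alternatives). Members at an unadjusted p of 0.05 or less over the 14 types numbered 16 to 28 in place of 24. In the averages over types they numbered 3 with a pseudocount of 1 CPM and 4 without the filter on low counts, in place of 7, and 5 to 9 with 1 heart left out. All genes called numbered 10, and were 3 and 37 with pseudocounts of 1 and 50 CPM, 67 without the filter, 1 with a filter of 30 UMIs, 28 by limma-voom, 20 with hearts centred on the median gene, 0 without the trend, 16 with the robust option, 19 with doublets removed, and 4 to 108 with 1 heart left out (108 and 73 without IL-33+ hearts 1 and 3, and 24, 4 and 55 without IL-33- hearts 1 to 3). Partner shares without overlap of hearts numbered 1, and were 4 by mean CPM, 3 without hearts of under 10 UMIs, 2 with doublets removed, and 1 to 11 with 1 heart left out (11 without IL-33+ heart 1), where fewer hearts overlap less often. Of the alternative values for named members 293 kept their sign and their side of the threshold and 7 changed sign: Itgae in Treg by limma-voom (-0.43) and without IL-33+ heart 1 (-0.14, range -0.14 to 0.92 with 1 heart left out); Itgam in macrophages by limma-voom (0.067), without IL-33+ heart 2 (0.13) and without IL-33- heart 2 (0.074), range -0.34 to 0.13 with 1 heart left out; and Itgb1 (-0.14) and Itgav (-0.045) in fibroblasts without endothelial-marked cells. The causes were not tested. No paired analysis was possible because the labels pair no IL-33+ heart with an IL-33- heart. Depth limits the low members: 9 of 31 had under 100 UMIs, hearts with 2 to 9 cells of a type entered several comparisons, and a single UMI then moved a mean by several CPM.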
